A study of Mus musculus with 37 samples.

Results

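The aminoacyl-tRNA synthetase genes were described in the gastrocnemius, a calf muscle, of wild-type animals and of animals labelled as skeletal muscle-specific Nampt knockouts. Members were the protein-coding genes whose mouse symbol is 1 capital letter plus ars, followed by nothing, 1, 2, a or b, together with Eprs, at a mean over all libraries of at least 1 CPM, a count scaled to a common library total. Of the 50686 genes in the counts table, 37 symbols fitted this pattern. Lars2, the mitochondrial leucyl enzyme, was left out because its counts followed carried-over ribosomal RNA, so 36 members remained, of which 20 encode cytosolic and 16 mitochondrial forms. All 36 passed the filter on low counts and were among the 16728 genes tested. Each library came from 1 animal. There were 6 wild-type and 5 knockout animals at 2 weeks of age and again at 4 weeks. The 6-week groups held 2 animals each, and those of 8 weeks held 5 wild-type and 6 knockout animals. The labels call the controls WT and the knockouts SMNKO or HOM, with no further allele or treatment in any group, and the driver of the knockout and the strain are not given in the sources used here.

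Aminoacyl-tRNA synthetases join each amino acid to its transfer RNA (tRNA), the step that fixes the genetic code before the ribosome is reached. Cytosolic and mitochondrial translation mostly use separate enzymes from separate nuclear genes, the latter carrying a 2 in the symbol. Gars and Kars each supply both compartments from a single gene, Eprs joins the glutamyl and prolyl activities in 1 protein, and Farsa and Farsb are the subunits of the cytosolic phenylalanyl enzyme. A group of cytosolic enzymes is held in the multisynthetase complex by 3 scaffold proteins. Amino acid shortage or mitochondrial stress can raise many cytosolic synthetase transcripts through the transcription factor ATF4. Nampt, the deleted gene, encodes the rate-limiting enzyme that recycles nicotinamide to NAD+.

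Total counts ran from 5192700 to 23134727 per library, with a median of 16827002. Nampt itself was lower in the knockout at every age, with 46.5 to 56.0 CPM at 8 weeks against 170 to 236 CPM in wild type. At 2 weeks the ranges were 31.3 to 34.8 CPM against 50.2 to 75.03 CPM. Ribosomal RNA genes took over 5% of counts in 5 libraries, namely wild-type animals 3 and 4 and knockout animal 8 at 4 weeks, and wild-type animals 34 and 35 at 8 weeks, and at most 1.24% in the others. Wild-type animals 34 and 35 were also the only wild-type animals of sequencing pool A at 8 weeks. Wild-type animal 36 at 8 weeks held 9293 CPM of the slow myosin gene Myh7 and 6596 CPM of the fast myosin gene Myh4. In knockout animals 12 (4 weeks) and 42 (8 weeks) the sex-linked genes Xist and Ddx3y differed from the labelled sex. Wild-type animal 4, labelled female, held 45.1 CPM of Xist and also 8.00 CPM of Ddx3y. No sex was labelled at 2 weeks. Only knockout animal 19 was labelled female at 6 weeks, and only wild-type animal 35 at 8 weeks. Lars2 spanned 31.9 to 471481 CPM, which is why its log2 fold change of -7.91 (SE 2.43) at 8 weeks is not read as a synthetase result.

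Averaged over all libraries, cytosolic synthetases stood above their mitochondrial partners per kilobase of exon. On a scale of CPM per kilobase of annotated exon, averaged over the 37 libraries, the cytosolic members ran from 4.54 for Farsa to 26.2 for Gars, with a median of 13.2. Nars, the asparaginyl enzyme, stood at 21.6 and Kars, the lysyl enzyme, at 21.1. The mitochondrial members ran from 1.21 for Nars2 to 10.2 for Iars2, the mitochondrial isoleucyl enzyme, with a median of 3.45. Among 17 cytosolic and mitochondrial pairs for the same amino acid, the cytosolic level per kilobase was the higher in 17. Eprs is paired with Ears2 and with Pars2, and Fars2 with Farsa and with Farsb. In CPM not divided by length, Iars2 (90.6) stood above Iars (62.9) and Fars2 (22.9) above Farsa (20.6). The cytosolic form was the higher in the other pairs. The ratio of levels per kilobase ran from 1.14 for Farsa over Fars2 to 17.8 for Nars over Nars2, with a median of 3.96, and for Iars over Iars2 it was 1.17. By the means of the 8 groups, the cytosolic level was the higher in every group for 15 of the 17 pairs. The exceptions were Iars2, which stood above Iars at 2 weeks in both genotypes and at 6 weeks in wild type, and Fars2, which stood above Farsa at 6 and 8 weeks in wild type. Of the Iars2 exon bases, 22.9% overlap another gene, Rab3gap2, on the opposite strand. Farsa and Farsb, whose proteins pair in 1 enzyme, differed in level, at 4.54 and 19.4 CPM per kilobase, or 20.6 and 50.9 CPM. The length used counts every annotated exon base of a gene over all its transcripts, not the transcripts present. Levels and ratios per kilobase therefore depend on the annotation.

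Because ATF4 dimers bind a short element known as CARE, the promoter windows of the members were searched for it. The letters TGATGNAA, the only motif searched, were looked for on both strands in the 250 bases before each RefSeq gene start (GRCm38.p6). Windows were on hand for 26 of the 36 members, 13 of each compartment. The letters occurred in 3 of the 13 cytosolic windows, among them those of Gars and Tars, and in 0 of the 13 mitochondrial windows, while 3.91% of 27025 genes held them. The sites of Gars and Tars are shown as members for which a link to ATF4 can be asked of the sequence, with the matched letters in capitals. The Gars site is at chr6:55037960-55037989 on the plus strand and the Tars site at chr15:11399659-11399688 on the minus strand. Each is written 5′ to 3′ on its gene's strand.
Gars: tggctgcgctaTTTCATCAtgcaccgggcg
Tars: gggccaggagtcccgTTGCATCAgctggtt
A match describes the letters in this window and no binding was measured.

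Between 2 and 4 weeks of age, most cytosolic synthetases rose in wild-type muscle. By edgeR's quasi-likelihood test with Benjamini-Hochberg adjustment over all genes tested, 24 of the 36 members rose and 0 fell, while 24.2% of all genes rose and 47.9% were called in either direction, but with library totals in place of TMM scaling 5 fell and 0 rose. The rise covered 18 of the 20 cytosolic and 6 of the 16 mitochondrial members. The median log2 fold change was 0.35 for cytosolic and 0.13 for mitochondrial members, and -0.04 for all genes tested. That other scaling moved the median of all genes to -0.53, while the median of the members lay 0.34 above the median of all genes under both. A change of scaling shifts all genes nearly alike, so this agreement was nearly fixed in advance and is no check. All values below are log2 fold changes with TMM scaling.

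Farsb, the beta subunit of the phenylalanyl enzyme, gave the largest rise with growth. It held 37.1, 40.5 and 45.0 CPM (lowest, median, highest) in the 6 wild-type animals at 2 weeks and 59.1, 64.6 and 75.4 CPM in the 6 at 4 weeks, so the ages did not overlap. Its log2 fold change was 0.72 (SE 0.10, edgeR adjusted p = 1.2e-06). Qars, the glutaminyl enzyme, went from a range of 42.4 to 47.3 CPM to one of 58.1 to 69.8 CPM, again without overlap, at a log2 fold change of 0.54 (SE 0.073, edgeR adjusted p = 6.62e-07). Eprs, which stood highest of the members in CPM at a mean of 282, went from 203 to 236 CPM up to 306 to 364 CPM. All 8 cytosolic synthetases of the multisynthetase complex rose, as did 10 of the 12 outside it. The cytosolic members that did not pass were Vars, the valyl enzyme, at 0.03 and Hars, the histidyl enzyme, at 0.13. On the mitochondrial side the rises included Rars2 (0.47), Sars2 (0.41), Aars2 (0.40), Cars2 (0.31) and Yars2 (0.27). Between 4 and 8 weeks in wild type, 3 of 36 members were called, or 8.33% against 15.4% of all genes (7.8% rose and 7.59% fell). Farsa fell by 0.37 (edgeR adjusted p = 0.0146) and Sars2 by 0.39 (adjusted p = 0.0411).

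**Figure D1:**
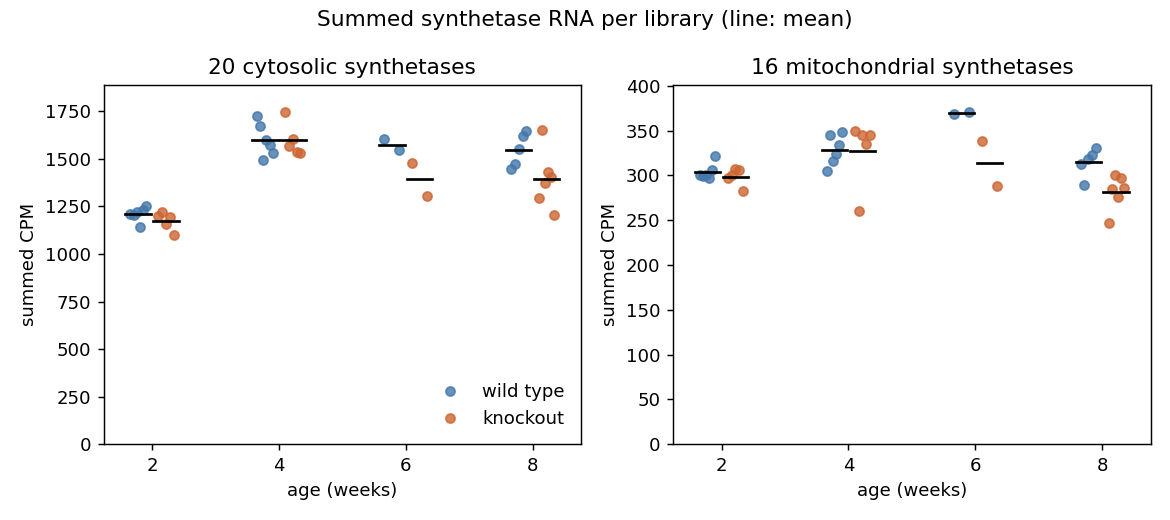
Summed CPM (TMM-scaled) of the cytosolic and of the mitochondrial synthetases in each library, by age in weeks and genotype, with points for libraries and lines for group means. The mean cytosolic sum went from 1211 CPM at 2 weeks to 1599 CPM at 4 weeks in wild type, and at 8 weeks it was 1546 CPM in wild type and 1393 CPM in the knockout; with library totals in place of TMM scaling the members' change with growth turns over.

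At 2 weeks the knockout had no called member. Genotype and sequencing pool were unbalanced at this age. Only animal 31 of the knockouts was in pool B, and only animals 21 and 23 of the wild types were in pool A. In edgeR's test 0 of 36 members passed, against 0.0598% of all genes, and 0 had an unadjusted p under 0.05, while DESeq2 called 0 with 1 under that unadjusted p. Fold changes ran from -0.17 to 0.21 for Pars2, with a median of -0.05 beside -0.02 for all genes. The summed cytosolic level ranged from 1139 to 1253 CPM in wild type and from 1098 to 1221 CPM in the knockout, and these ranges overlapped. For 0 of the 36 members the genotypes were without overlap, against 3.47% of all genes.

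At 4 weeks 1 member passed, Sars, the cytosolic seryl enzyme on chromosome 3 (108424865 to 108445209, minus strand). The 6 wild-type animals held 86.1, 91.6 and 101 CPM (lowest, median, highest), and the 5 knockout animals 106, 109.5, 110.3, 124 and 147 CPM. Every knockout animal stood above every wild-type animal. Sars rose by 0.37 (SE 0.097, edgeR adjusted p = 0.0209), from a mean of 92.9 ± 5.13 to 119 ± 17.02 CPM (SD, n = 6 and 5), making 1 of 36 members called against 5.66% of all genes, of which 2.46% rose. Sars was also the only member whose genotypes did not overlap, against 2.8% of all genes (1.03% with the knockout higher). Its mitochondrial partner Sars2 did not pass. The call was lost without knockout animal 7 or 12, the latter being an animal whose sex-linked genes differed from its label, and in 5 of 11 alternatives. These were library totals (0.40, adjusted p = 0.512), no filter on low counts (0.36, adjusted p = 0.0637), pool A alone (0.45, adjusted p = 0.108), pool B alone (0.37, adjusted p = 0.551) and a term for labelled sex (0.36, adjusted p = 0.141). Without the rRNA-rich libraries it was kept, at 0.42 (adjusted p = 0.0325). Pars2, the mitochondrial prolyl enzyme, gave 0.48 (adjusted p = 0.0537) and Farsb -0.33 (adjusted p = 0.0593), and neither passed.

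At 6 weeks, with 2 animals per genotype, 4 of 36 members fell and 0 rose, or 11.1% against 9.67% of all genes, of which 4.34% fell. Fars2, the mitochondrial phenylalanyl enzyme, held 27.9 and 31.6 CPM in wild type and 18.2 and 19.5 CPM in the knockout, a fall of 0.66 (SE 0.18, edgeR adjusted p = 0.0198). Cars2, the mitochondrial cysteinyl enzyme, held 15.4 and 15.8 CPM against 9.95 and 10.9 CPM and fell by 0.58 (SE 0.17, adjusted p = 0.0230). Dars, the cytosolic aspartyl enzyme, held 91.4 and 98.6 CPM against 70.5 and 73.3 CPM and fell by 0.40 (SE 0.13, adjusted p = 0.0410). For each of these genes both knockout animals lay under both wild-type animals. The genotypes did not overlap for 2 members that were higher and 19 that were lower in the knockout, or 58.3% against 54% of all genes (27.6% higher and 26.5% lower). Leaving out any of the 4 animals brought the count of calls to between 0 and 2, with the spread estimated over all groups, and the calls of Fars2, Cars2 and Dars were each kept in 0 of these 4 fits. Iars, the cytosolic isoleucyl enzyme, went the other way without passing, at 0.40 (adjusted p = 0.0561), with 53.3 and 56.3 CPM in wild type and 66.8 and 77.7 CPM in the knockout.

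**Figure D2:**
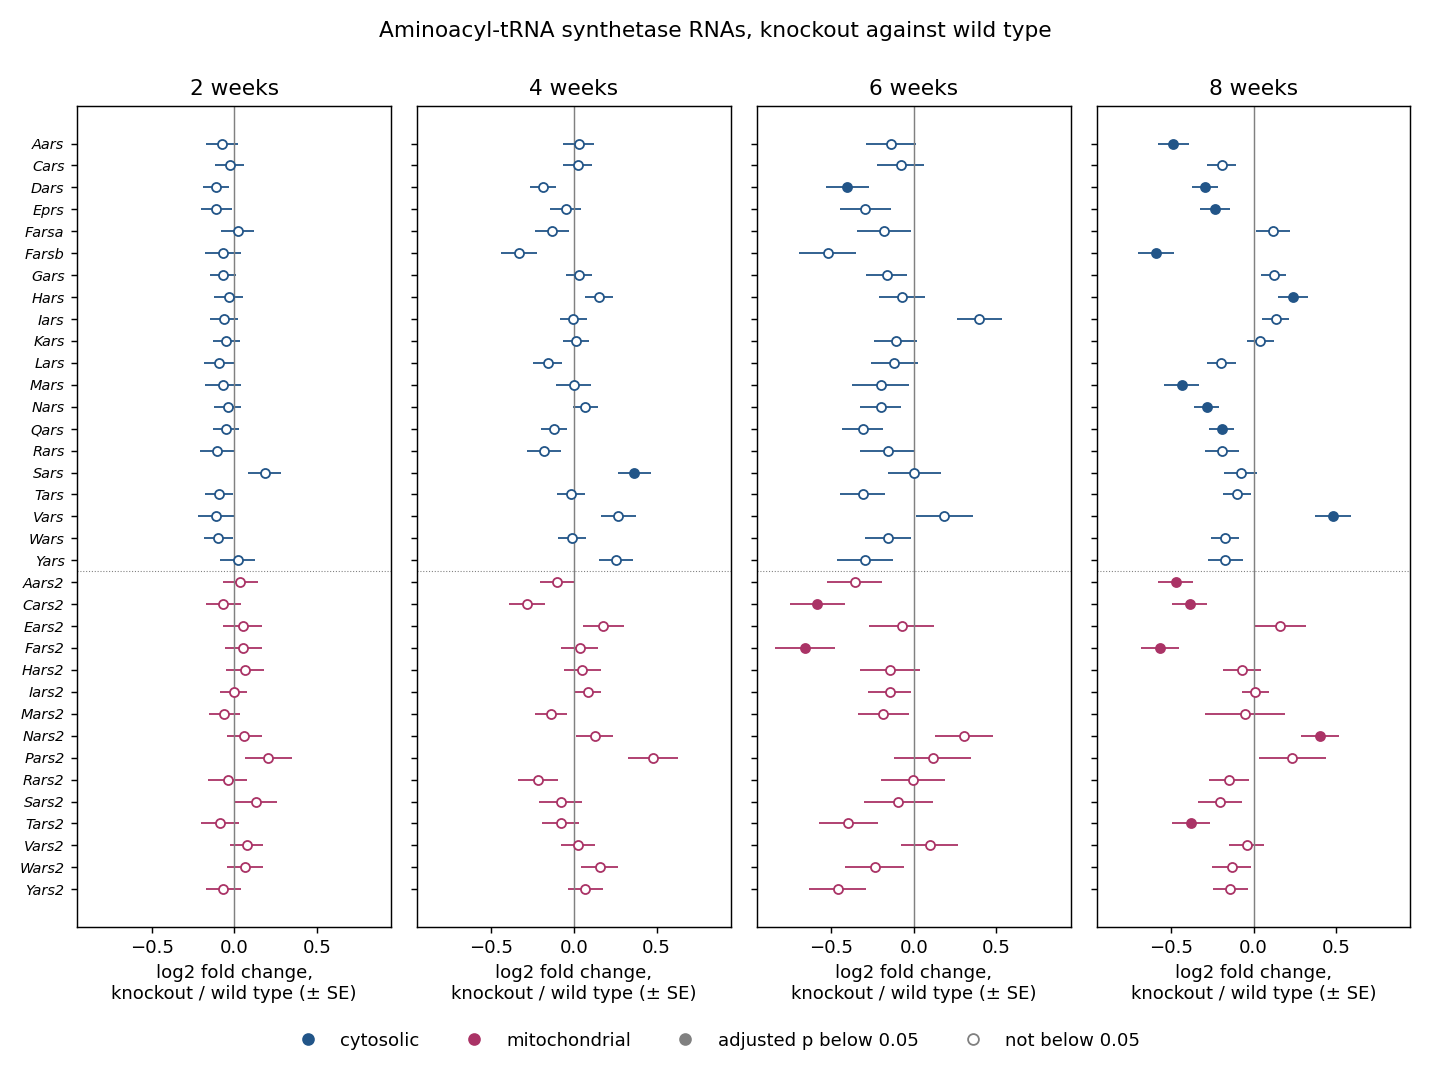
Log2 fold change (knockout over wild type, TMM-scaled) of 35 of the 36 synthetases at 2, 4, 6 and 8 weeks of age, cytosolic and mitochondrial members in separate colors, with SE bars and filled points for called members. No member was called at 2 weeks, Sars alone at 4 weeks, falls including Fars2, Cars2 and Dars at 6 weeks, and mostly falls at 8 weeks, beside the rises of Vars, Hars and Nars2; with library totals in place of TMM scaling the fitted values of the 8-week falls turn positive.

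At 8 weeks 15 of the 36 members were called, 12 falls and 3 rises, relative to TMM scaling. This is 41.7% of the members against 52.5% of all genes, of which 26.2% rose and 26.3% fell. With library totals in place of TMM scaling 29 members rose and 0 fell, and the median of all genes moved to 0.82. Read relative to that median, each of the 15 called members kept its sign. This was nearly fixed in advance, because the change of scaling shifts all genes nearly alike, and is no check of the calls. The median log2 fold change was -0.16 for the members and 0.03 for all genes, and the median size regardless of sign was 0.19 against 0.47. Calls fell on 9 of the 20 cytosolic members (7 fell, 2 rose) and 6 of the 16 mitochondrial members (5 fell, 1 rose). In bulk muscle fewer cells of a type and less RNA per cell cannot be told apart. All 12 macrophage markers rose in the same animals, their sum going from 145 to 201 CPM in wild type to 933 to 2043 CPM in the knockout, while 7 of 10 myofibre markers fell and 1 rose, their sum going from 67439 to 173733 CPM to 46151 to 133699 CPM. The lowest wild-type myofibre sum was that of animal 36, and the next was 157013 CPM in animal 34. No macrophage or myofibre marker was at 0 throughout a genotype, and the part of either in the synthetase results was not tested.

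Among the cytosolic enzymes Farsb changed most. The 5 wild-type animals held 52.0, 56.1, 62.5, 69.9 and 75.9 CPM and the 6 knockout animals 32.9, 43.3 and 48.8 CPM (lowest, median, highest). Every knockout animal lay below every wild-type animal, the lowest of which was animal 36. The gene, on chromosome 1 (78417975 to 78488897, minus strand), fell by 0.59 (SE 0.11, edgeR adjusted p = 2.63e-05), from 63.3 ± 9.78 to 41.9 ± 6.10 CPM. Farsa, the other subunit of the same enzyme, held 14.7 to 22.3 CPM in wild type and 16.97 to 23.1 CPM in the knockout. It did not pass, at 0.12 with a 95% interval of -0.09 to 0.33, and the difference between the subunits was not tested. Of the Farsb exon bases, 9.47% overlap another gene, Sgpp2.

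Aars, the alanyl enzyme on chromosome 8, held 111, 115, 122, 127 and 145 CPM in wild type and 71.1, 87.8 and 115 CPM (lowest, median, highest) in the knockout. All but 1 knockout animal lay below every wild-type animal. It fell by 0.49 (SE 0.093, edgeR adjusted p = 5.17e-05), and 14.3% of its exon bases overlap Exosc6 on the same strand. Gars, the glycyl enzyme, whose window carries the CARE letters printed above, gave 0.12 with a 95% interval of -0.03 to 0.28. Tars, the threonyl enzyme, which also carries them, gave -0.10 with an interval of -0.27 to 0.07. Neither passed.

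The methionyl enzyme gene Mars, which charges the initiator tRNA, held 52.6, 56.7, 57.0, 57.7 and 68.0 CPM in wild type against 33.4, 44.5 and 53.9 CPM (lowest, median, highest). It fell by 0.43 (SE 0.11, edgeR adjusted p = 0.000827), with 5 of 6 knockout animals below all wild-type animals. Dars held 75.6 to 93.7 CPM in wild type and 66.6, 67.9 and 75.5 CPM in the knockout, where 6 of 6 lay below, and fell by 0.29 (SE 0.078, adjusted p = 0.00214). For Nars the wild-type values were 99.996 to 123 CPM and the knockout values 73.7, 90.9 and 105 CPM, with a fall of 0.28 (SE 0.077, adjusted p = 0.00243) and 5 of 6 animals below. These 3 genes separated the genotypes nearly fully. Eprs, at 284 to 374 CPM in wild type and 225, 266 and 347 CPM in the knockout, fell by 0.23 (SE 0.093, adjusted p = 0.0349). Qars, at 51.9 to 67.1 CPM against 43.8, 52.1 and 58.1 CPM, fell by 0.19 (SE 0.078, adjusted p = 0.0363). Both of these overlapped between genotypes, with 4 and 2 of 6 knockout animals below all wild-type animals. The Eprs and Qars calls each remained in only 4 of the 11 fits that left out 1 animal of this age. Of the 8 synthetases in the multisynthetase complex, Dars, Eprs, Mars and Qars fell. Of the 12 outside it, Aars, Farsb and Nars fell and 2 rose.

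The cytosolic members that rose at 8 weeks were Vars and Hars, the same genes that did not pass in wild-type growth. Vars, on chromosome 17 (35000987 to 35016322, plus strand), held 36.7, 40.8, 42.3, 43.1 and 43.6 CPM in wild type and 51.0, 57.2 and 71.1 CPM (lowest, median, highest) in the knockout. Every knockout animal stood above every wild-type animal. It rose by 0.48 (SE 0.11, edgeR adjusted p = 0.000350), from 41.3 ± 2.81 to 58.8 ± 8.55 CPM, and was called as a rise in 11 of 11 alternative fits, between 0.33 and 1.31. Hars held 28.9 to 33.0 CPM against 33.4, 35.5 and 42.8 CPM, and rose by 0.24 (SE 0.088, adjusted p = 0.0220) with 6 of 6 animals above. Hars was no longer called without wild-type animal 34, 35 or 36 or knockout animal 40, and without the rRNA-rich libraries it gave 0.16 (adjusted p = 0.162). The gene shares 7.97% of its exon bases with Hars2, its divergently transcribed mitochondrial partner, which did not pass at -0.07.

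**Figure D3:**
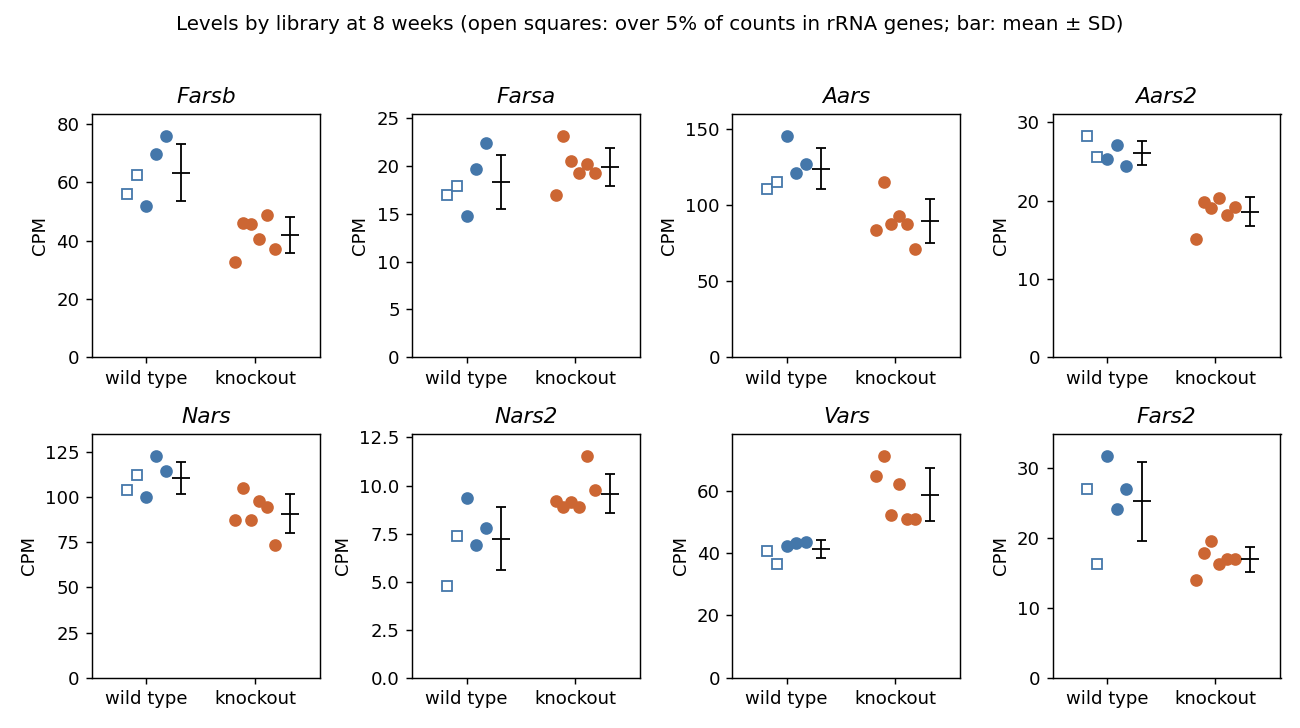
CPM (TMM-scaled) of Farsb, Farsa, Aars, Aars2, Nars, Nars2, Vars and Fars2 at 8 weeks in each of the 5 wild-type and 6 knockout animals, with points for animals, open squares for rRNA-rich libraries, and bars for mean ± SD. Farsb and Aars2 lie lower and Vars higher in every knockout animal than in any wild-type animal, while Farsa overlaps throughout; with library totals in place of TMM scaling the fitted values of the falls turn positive.

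Of the mitochondrial members, Fars2, on chromosome 13 (36117412 to 36726280, plus strand), had the largest fall. It held 16.3, 24.2, 26.9, 27.0 and 31.7 CPM in wild type and 13.9, 16.96 and 19.5 CPM (lowest, median, highest) in the knockout. The lowest wild-type value came from animal 35, an rRNA-rich library, and the other 4 lay above every knockout animal. Fars2 fell by 0.57 (SE 0.11, edgeR adjusted p = 0.000106). Aars2, the mitochondrial alanyl enzyme on chromosome 17 (45506841 to 45520843, plus strand), held 24.4, 25.3, 25.6, 27.1 and 28.2 CPM against 15.1, 19.1 and 20.3 CPM. Its genotypes did not overlap, and it fell by 0.47 (SE 0.11, adjusted p = 0.000354).

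Cars2 held 11.3 to 13.9 CPM in wild type and 8.59, 9.78 and 11.3 CPM (lowest, median, highest) in the knockout and fell by 0.39 (SE 0.11, edgeR adjusted p = 0.00280), its genotypes just apart. Tars2, the mitochondrial threonyl enzyme, held 30.4 to 40.4 CPM against 21.01, 25.1 and 28.8 CPM, without overlap. It fell by 0.38 (SE 0.11, edgeR adjusted p = 0.00555), and its highest wild-type value came from animal 34, an rRNA-rich library. The Tars2 call was lost in either pool by itself, and without the rRNA-rich libraries and wild-type animal 36. Nars2, the mitochondrial asparaginyl enzyme and the lowest member per kilobase, was the only mitochondrial member to rise. It held 4.78, 6.93, 7.39, 7.76 and 9.35 CPM in wild type and 8.88, 9.17 and 11.5 CPM in the knockout. The genotypes overlapped, with 2 of 6 knockout animals above all wild-type animals, and the rise was 0.40 (SE 0.12, adjusted p = 0.00391). The summed mitochondrial level ran from 290 to 330 CPM in wild type and from 247 to 300.1 CPM in the knockout. In all, 2 members lay higher and 5 lower without overlap, or 19.4% against 24.2% of all genes (13.5% higher and 10.7% lower).

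In 4 of the 17 pairs both partners were called at 8 weeks. Among them Aars with Aars2 and Farsb with Fars2 fell together. Relative to TMM scaling Nars fell by 0.28 while Nars2 rose by 0.40, and the difference between them was not tested. With library totals in its place both were called as rises, Nars at 0.57 and Nars2 at 1.18. The Nars2 call was lost in pool A alone and in pool B alone, and the Nars call in pool A alone. In 8 pairs only 1 partner was called and in 5 neither, and 11 pairs had the same sign. The median of the cytosolic members lay 0.05 below that of the mitochondrial members, a difference that changed sign between settings.

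**Figure D4:**
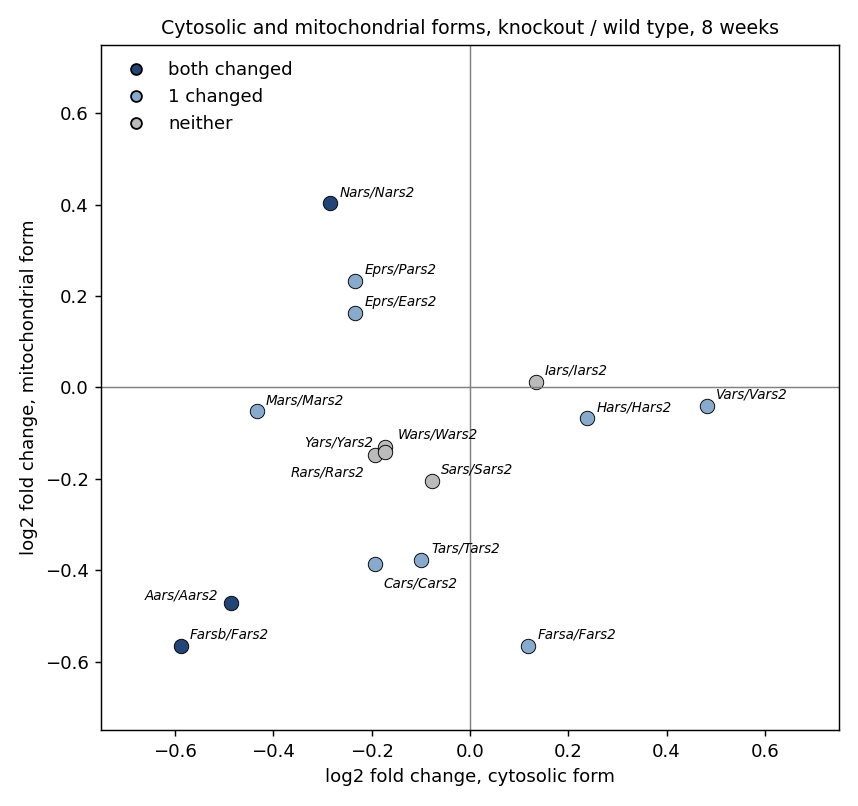
Log2 fold change at 8 weeks (knockout over wild type, TMM-scaled) of the mitochondrial partner against the cytosolic partner in 16 of the 17 pairs, with darker points where more partners were called. Aars and Farsb lie with their partners in the lower left, and Nars with Nars2 in the upper left; with library totals in place of TMM scaling the fitted values of the falls turn positive.

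The 21 members that did not pass at 8 weeks ran from -0.20 for Sars2 to 0.23 for Pars2, 7 above and 14 below 0. Iars2, the highest mitochondrial member per kilobase, gave 0.01 with a 95% interval of -0.15 to 0.17, and 22.9% of its exon bases overlap Rab3gap2. Lars (-0.19, edgeR adjusted p = 0.0633), Cars (-0.19, adjusted p = 0.0662) and Wars (-0.17, adjusted p = 0.0929) lay nearest the threshold, and all 3 were called as falls without the rRNA-rich libraries. Kars, which serves both compartments, gave 0.04.

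The knockout effect itself differed between 8 and 4 weeks for 6 of 36 members, or 16.7% against 27.4% of all genes (13.8% lower), and in all 6 it was lower at 8 weeks. The difference of log2 fold changes was -0.52 for Aars (SE 0.13, edgeR adjusted p = 0.00383), -0.60 for Fars2 (SE 0.16, adjusted p = 0.00546) and -0.35 for Nars (SE 0.11, adjusted p = 0.0149). It was -0.44 for Sars (adjusted p = 0.0161), which rose at 4 weeks and stood at -0.08 at 8 weeks, and -0.43 for both Mars and Yars, the tyrosyl enzyme. Without knockout animal 7 of 4 weeks only 3 of these calls were made, those of Sars, Mars and Yars being lost. With library totals in place of TMM scaling 14 differences were positive calls and 0 negative. Relative to the median of all genes the 6 kept their sign. That too was nearly fixed in advance, because the change of scaling shifts all genes nearly alike, and is no check.

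The proteins that hold the multisynthetase complex together were read from their own list. All 3 scaffold genes rose between 2 and 4 weeks in wild type, where 24.2% of all genes rose. In the knockout at 8 weeks 2 of 3 fell, while 26.3% of all genes fell. Aimp1 went from 56.6 ± 8.31 to 41.8 ± 8.25 CPM (SD, n = 5 and 6), a fall of 0.44 (SE 0.10, edgeR adjusted p = 0.000741). Aimp2 went from 80.2 ± 36.04 to 45.6 ± 15.1 CPM, a fall of 0.80 (SE 0.27, adjusted p = 0.0145) in which the genotypes overlapped, wild type running from 19.8 to 114 CPM. Eef1e1 gave -0.02 and did not pass. Of 9 relatives outside the rule, 3 fell. They were Tarsl2, a second cytosolic threonyl enzyme (-0.76), Pstk, a kinase of the selenocysteine pathway (-0.43), and Lars2. The Lars2 fall is not read as a synthetase result, because its counts followed carried-over ribosomal RNA.

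Of 14 mitochondrial translation factors 10 fell (71.4%) and 0 rose, at a median of -0.37, while 26.3% of all genes fell and 52.5% were called. Gfm1, the mitochondrial elongation factor G, went from 127 ± 10.3 to 76.2 ± 4.48 CPM, a fall of 0.74 (SE 0.081, edgeR adjusted p = 5.87e-09). Gfm2, which recycles mitochondrial ribosomes, fell by 0.76 (SE 0.086, adjusted p = 1.06e-08), and the initiation factor Mtif2 by 0.54. Mitochondria make glutaminyl-tRNA by amidating tRNA that Ears2 has charged with glutamate. The 3 subunits of that amidotransferase, of which Gatb and Qrsl1 are named after their values were seen, fell: Gatc by 0.69, Gatb by 0.42 and Qrsl1 by 0.41. Ears2 itself gave 0.16 with a 95% interval of -0.16 to 0.48 and did not pass. Of 6 cytosolic elongation factors 2 rose and 2 fell. Eef1a1, which delivers charged tRNA to the ribosome in most tissues, rose by 1.73 (SE 0.14, adjusted p = 1.44e-11), from 319 ± 58.3 to 1075 ± 207 CPM, while its muscle form Eef1a2 fell by 0.70 and Eef1d by 0.39, and Eef1b2 rose by 0.34.

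Genes that share the amino acid response with the synthetases went both ways at 8 weeks. Of 12 amino acid synthesis genes tested 7 rose and 4 fell. Asns, asparagine synthetase, rose by 2.12 (SE 0.27) from 2.01 to 9.39 CPM, Mthfd2 of mitochondrial folate metabolism by 1.54 (SE 0.21), and Aldh18a1 of proline synthesis by 1.26 (SE 0.16), while Cth, which makes cysteine, fell by 3.28 (SE 0.38). Amino acid transporters rose in 4 of 8 tested, with Slc7a5, a leucine carrier, up by 2.07 (SE 0.27) and its partner Slc3a2 by 0.69. Of 8 stress transcription factors 1 rose and 3 fell. Atf3 rose by 2.81 (SE 0.48), and Atf5 fell by 1.16 (SE 0.14), Nupr1 by 0.73 and Cebpg by 0.72. Atf4, named after its values were seen, stood at 125 CPM in both genotypes with a log2 fold change of -0.01 (SE 0.12). Among 8 stress effectors 3 rose and 2 fell, with Gdf15, a secreted stress signal, up by 2.67 (SE 0.65) and Chac1, which degrades glutathione, down by 2.64 (SE 0.64), from 35.6 to 6.05 CPM. Of 8 tested genes for eIF2 alpha kinases and phosphatase subunits 4 rose, among them Eif2ak2 by 0.53 and Eif2ak4, the sensor of uncharged tRNA, by 0.29. These calls, at an edgeR adjusted p below 0.05, stand against 52.5% of all genes.

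The same letters searched in the synthetase promoters occurred in 3 of 12 windows of the synthesis genes, 3 of 7 of the stress effectors, 2 of 8 of the transcription factors and 1 of 6 of the transporters. The sites of Asns, which rose, and Chac1, which fell, are printed to set beside those of Gars and Tars, which did not pass. Asns lies at chr6:7693214-7693243 on the minus strand and Chac1 at chr2:119351038-119351067 on the plus strand, both in GRCm38.p6 and written on the gene's strand.
Asns: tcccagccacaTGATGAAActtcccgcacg
Chac1: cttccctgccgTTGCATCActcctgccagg
All 30 bases printed for Asns lie in an exon annotated in GENCODE vM21, as do 7 of those for Tars and 0 for Gars and Chac1. Genes with these letters included a rise and a fall, and the letters do not show whether ATF4 was bound.

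**Figure D5:**
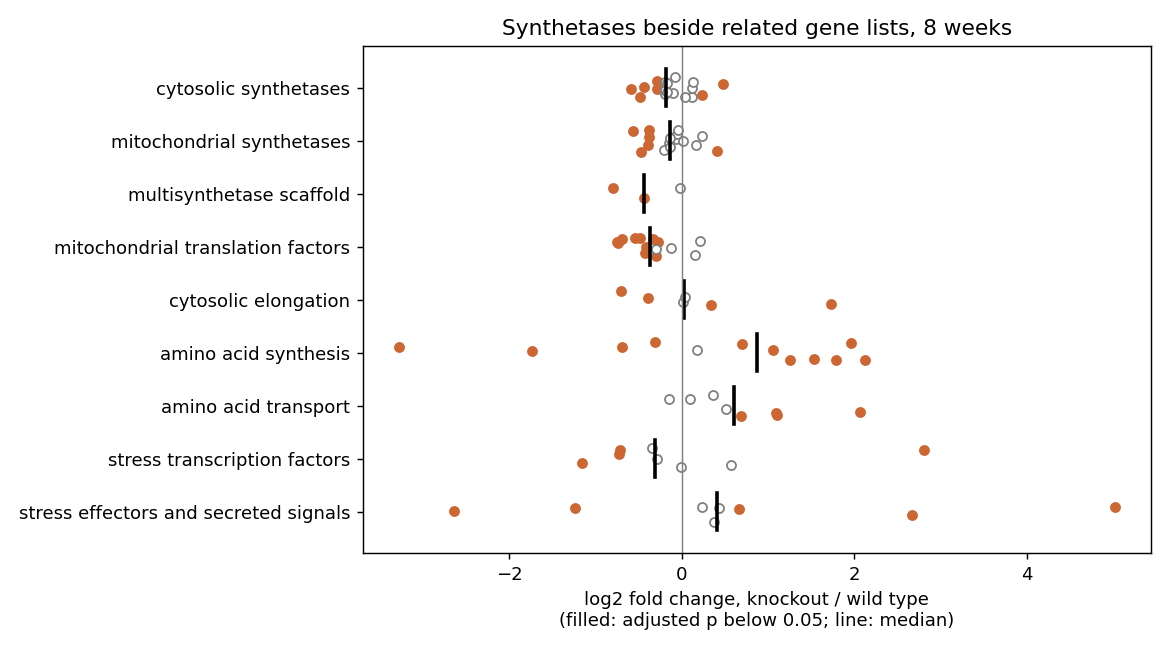
Log2 fold change at 8 weeks (knockout over wild type, TMM-scaled) of each gene in the synthetase groups and the related lists, with filled points for called genes, open points for the others and a bar for each list's median. The synthetases sit within -0.59 to 0.48, the mitochondrial translation factors center on -0.37, and the amino acid synthesis genes spread from -3.28 to 2.12; with library totals in place of TMM scaling the median of all genes moves to 0.82.

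Markers of other cells changed in the same 8-week animals, in a comparison where 26.2% of all genes rose and 26.3% fell. All 10 regenerating muscle markers rose, with a sum of 50.7 to 128 CPM in wild type and 455 to 1741 CPM in the knockout, and so did 9 of 13 interferon response genes, a list read here because Wars, the tryptophanyl enzyme, is known to respond to interferon. Irf7 rose by 1.78 and Cxcl10 by 4.14, while Wars gave -0.17. All 6 endothelial markers fell (309 to 523 against 228 to 284 CPM), as did all 6 Schwann cell markers (125 to 563 against 52.0 to 135 CPM), all 5 erythroid markers and 4 of 5 adipocyte markers. The highest wild-type sums of the regenerating muscle, endothelial and Schwann cell markers were all those of animal 36. Of 8 fibroblast markers 4 rose and 1 fell. Of 8 lymphocyte markers 0 passed in edgeR, with 1 at an unadjusted p under 0.05, and Cd3g was at 0 in every wild-type animal. At 4 weeks, when Sars rose, 4 of 12 macrophage markers rose, against 2.46% of all genes. At 6 weeks 3 of 12 rose, while 9.67% of all genes were called in either direction. Among lymphocyte markers at 4 weeks, 0 of 8 passed in edgeR and 7 had an unadjusted p under 0.05. Their sum was 43.9 CPM in knockout animal 7 and 1.03 CPM in knockout animal 12. The Sars call was lost without animal 7 and also without animal 12. The median of the knockout animals at that age was 1.21 CPM, and the highest wild-type sum was 3.45 CPM. The part of these cell types in the synthetase values was not tested.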

How the data were processed

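RNA from gastrocnemius of 37 mice was purified on RNeasy columns, depleted of ribosomal RNA and sequenced as stranded 38-bp paired ends, per the labels. The authors deposited 1 table of whole-number counts per Ensembl gene, not normalized. Per the submitters' processing notes, the mm10 build was used with featureCounts 1.5.2, STAR 2.5.2b and edgeR 3.22.0, roles not stated. The counting's strand setting is not given in the sources used here, so genes sharing exon bases with a neighbour are uncertain. Symbols came from GENCODE vM21 (GRCm38), which held 50462 of the 50686 identifiers.

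Genes were filtered with filterByExpr by group (minimum count 10, minimum total 15), scaled with TMM factors and fitted in edgeR 4.0.16 (R 4.3.3; robust quasi-likelihood) over all 37 libraries, with a pool term beside the 8 groups of genotype and age (28 residual degrees of freedom). A gene was called at a Benjamini-Hochberg adjusted p below 0.05 over the 16728 genes tested. SEs were recovered from the reported p-values. CPM are TMM-scaled and given as mean ± SD or by animal. Nothing beyond the animal numbers says how animals were sampled, so p-values measure the spread between these animals.

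Called members were named at each age with their partners, up to 10 per direction in full, and up to 4 genes per related list by smallest p at 8 weeks; Nampt and Lars2 are always named. A member and a promoter site are counted but not reported here. Members and lists were chosen with earlier results of these data known. The alternatives were RLE factors, library totals, no filter, DESeq2 1.42.0, a sex term, only the compared groups, no term for the pool, either pool by itself, leaving out the rRNA-rich libraries, with or without wild-type animal 36, and leaving out each animal. On simulated data with 200 of 16728 genes changed, the 8-week test recovered 28.5% of log2 changes of 0.5 and 67.5% of changes of 1. The 6-week test recovered 1% and 45%. The changed genes were drawn from all genes tested, whatever their level. In the real 8-week data 52.5% of genes were called, so the adjusted threshold differed. These shares are therefore not the power for the members.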

Additional observations from a re-analysis of the deposited data

Results flagged for a closer look

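Over 15 members checked in groups of 4 to 10 animals, 8 of 90 checks found an animal far from the rest of its group, where chance gives about 1 in 20. At 2 weeks these were Aars2 in knockout animal 31 (19.02 CPM, the next being 22.05), and Fars2 (25.1, next 22.5) and Qars (48.0, next 42.5) in knockout animal 30. At 4 weeks knockout animal 8, an rRNA-rich library, was low in Farsb (33.9 CPM, next 53.4) and Fars2 (15.6, next 25.1), and wild-type animal 3, also rRNA-rich, was low in Nars (92.8, next 102). At 8 weeks wild-type animal 34, again rRNA-rich, was high in Tars2 (40.4, next 31.98). In the knockout at that age animal 43 was high in Nars2 (11.5, next 9.77).

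The knockout effect differed between 8 and 4 weeks by -0.52 for Aars (edgeR adjusted p = 0.00383), -0.60 for Fars2 (0.00546), -0.35 for Nars (0.0149), -0.44 for Sars (0.0161), -0.43 for Mars (0.0284) and -0.43 for Yars (0.0306), tested as the difference itself.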

How the results depend on the processing

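Library totals without scaling factors turned falls of 8 weeks into positive values: Aars 0.32, Dars 0.55, Eprs 0.58, Farsb 0.24, Mars 0.39, Nars 0.57, Qars 0.64, Aars2 0.36, Cars2 0.43, Fars2 0.23 and Tars2 0.46. They did the same to the differences between 8 and 4 weeks: Aars 0.30, Mars 0.35, Nars 0.49, Sars 0.31, Yars 0.40 and Fars2 0.16. This scaling brought the all-gene median to 0.82 (8 weeks) and 0.77 (that difference). Eprs also turned, to 0.017, in pool A alone, where 2 wild-type libraries were rRNA-rich. The other causes were not tested.

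Calls at 4 weeks (1) became 2 with RLE factors, with DESeq2 and in pool A, where Sars was not among them, and 0 with library totals, no filter, pool B or a sex term. Those at 6 weeks (4) became 2 with no filter, 7 without the rRNA-rich libraries and wild-type animal 36, and 0 with library totals, only these groups, pool A, pool B or a sex term. Those at 8 weeks (15) became 29 with library totals and 2 in pool A. Differences between 8 and 4 weeks (6) became 14 with library totals, 2 with no filter or a sex term, 3 with only these groups and 0 in pool A. Growth from 2 to 4 weeks (24) became 5 with library totals and 7 in pool A. From 4 to 8 weeks (3) there were 0 with library totals or in pool A, 5 with DESeq2, and 1 with no filter, only these groups, a sex term, or without the rRNA-rich libraries and wild-type animal 36. The cytosolic minus mitochondrial median at 2 weeks (-0.11) became -0.020 with no pool term, -0.055 with only these groups and -0.00034 in pool B, and at 8 weeks (-0.05) it became 0.20 in pool A.

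Leaving out each animal gave 0 to 0 calls at 2 weeks, 0 to 4 at 4 weeks, 0 to 2 at 6 weeks, 13 to 17 at 8 weeks, 3 to 8 between 8 and 4 weeks, 23 to 25 from 2 to 4 weeks and 2 to 5 from 4 to 8 weeks. The highest count at 4 weeks came without knockout animal 10, and 5 calls from 4 to 8 weeks came without wild-type animal 1 or 4. The medians ran from -0.13 to -0.06 at 2 weeks, -0.10 to 0.02 at 4 weeks, -0.01 to 0.03 at 6 weeks and -0.10 to 0.04 at 8 weeks. Without the rRNA-rich libraries 16 members were called at 8 weeks, 13 of them shared with the main result. No paired analysis was possible because the groups share no replicate (animal) numbers.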
